A study of Mus musculus with 16 samples.

Results

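The genes described here are 6 receptors that place B cells within the spleen: Gpr183, Ccr7, Ccr6, Cxcr5, Cxcr4 and Cxcr3. They were chosen by name from the 25640 genes of the count table. All 6 were among the 13708 genes that had enough counts to be tested. The study sequenced polyadenylated RNA from 2 kinds of splenic B cell, follicular (FoB) and germinal center (GCB), of mice whose B cells did or did not carry a Cre that deletes Rock2, the gene of a kinase that acts on the cytoskeleton. All mice were C57BL/6, 10 weeks old and homozygous for a floxed Rock2 allele, and all had received 100 µg of NP-CGG, a hapten coupled to a carrier protein, in alum 7 days before the spleen was taken. Conditional knockout mice (cKO) also carried CD23-Cre, a recombinase switched on in B cells once they express CD23, so it was present in both cell types, and wild-type mice (WT) carried no Cre. FoB and GCB of each genotype thus made 4 groups of 3 libraries, numbered 1 to 3. The labels do not say that libraries of a group came from separate animals, so p-values measure the spread between these libraries only.

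All 6 receptors couple to Gi proteins and steer cells along gradients of a ligand. Cxcr5 binds CXCL13 and holds B cells in the follicle, Ccr7 binds CCL19 and CCL21 and draws cells toward the T zone, and Gpr183 (EBI2) binds a dihydroxylated oxysterol and draws activated B cells to the outer follicle and the border with the T zone. B cells that enter a germinal center normally turn Gpr183 and Ccr7 down and keep Cxcr5, and Cxcr4, which binds CXCL12, separates the dark zone from the light zone. Ccr6 binds CCL20 and is known from mice to mark memory B cells and their precursors, and Cxcr3 binds CXCL9 and CXCL10, chemokines induced by interferon gamma.

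Total counts ran from 23349512 to 26967943 per library. On the first principal component, cKO GCB 1 scored 59.5 and the other 5 GCB libraries 78.6 to 91.8, while the 6 FoB libraries scored -83.8 to -68.2, so cKO GCB 1 lay nearest to FoB of the GCB libraries. The libraries numbered 2 had the highest share of mitochondrial counts, 3.72% to 5.50%, against 1.05% to 2.95% in the other 8. Libraries with the same number also deviated together, so genotype results in GCB are given with and without the replicate number as a block, and calls made with the block are also followed without cKO GCB 1. Rock2 itself was at 166 ± 28.4 CPM (SD, n = 3) in WT GCB and 114 ± 19.7 in cKO GCB, and at 137 ± 12.2 and 102 ± 18.4 in FoB. Its log2 difference in GCB was -0.54 ± 0.18 (SE), with an adjusted p of 0.563 in edgeR's quasi-likelihood test and of 0.0330 with the replicate block, which rose to 0.175 without cKO GCB 1. With the block Rock2 passed in GCB in 6 of 15 fits that left out 1 library or all 4 of a number. In FoB its log2 difference was -0.42 ± 0.18, and -0.43 ± 0.12 with the block, and Rock2 passed in neither fit. A count over the whole gene does not show which exons were removed. Levels throughout are CPM, counts relative to the library total after TMM normalization across libraries. Adjusted p is Benjamini-Hochberg over the 13708 genes with a threshold of 0.05. Where another gene filter, DESeq2 or the authors' deposited table is named, the set of genes adjusted over differs.

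Gpr183, Ccr7 and Ccr6 moved together by genotype in GCB, and of these a promoter was found for Gpr183 and Ccr6 but not for Ccr7. The 250 bases before the start sites of Gpr183 and Ccr6 are shown, 5′ to 3′ on the gene's strand, from RefSeq on GRCm38.p6. Promoters were found for 4 of the 6 receptors, all but Ccr7 and Cxcr5, with 5 start sites in all. Both strands were searched for 8 motifs, given here by their letters where short. The lymphoid octamer was taken as ATGCAAAT, the shared core of STAT factors and BCL6 as TTCNNNGAA and the TATA box as TATAAA. KLF factors were searched as CACCC, a short box, FOXO factors as TGTTTAC, and the box shared by E2A and ZEB factors as CAGGTG. The IRF repeat and the composite site of ETS and IRF factors made up the 8. Capitals mark matches. The Gpr183 window is chr14:121965194-121965443, minus strand, and the Ccr6 windows are chr17:8235793-8236042 and chr17:8242276-8242525, plus strand.
Gpr183: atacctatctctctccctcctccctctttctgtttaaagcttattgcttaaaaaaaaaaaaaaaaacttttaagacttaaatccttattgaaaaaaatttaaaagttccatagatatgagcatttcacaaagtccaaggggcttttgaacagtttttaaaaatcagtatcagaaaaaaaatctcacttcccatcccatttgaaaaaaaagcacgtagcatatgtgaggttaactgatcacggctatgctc
Ccr6, first start site: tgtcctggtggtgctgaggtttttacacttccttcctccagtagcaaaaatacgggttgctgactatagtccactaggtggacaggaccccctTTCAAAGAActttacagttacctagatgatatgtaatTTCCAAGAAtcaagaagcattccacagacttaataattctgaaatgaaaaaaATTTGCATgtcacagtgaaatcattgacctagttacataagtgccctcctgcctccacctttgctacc
Ccr6, second start site: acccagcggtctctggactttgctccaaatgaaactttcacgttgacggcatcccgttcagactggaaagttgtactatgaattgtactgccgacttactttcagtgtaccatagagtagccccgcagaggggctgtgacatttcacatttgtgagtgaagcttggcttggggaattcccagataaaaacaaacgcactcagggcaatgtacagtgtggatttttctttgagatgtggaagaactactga
The first Ccr6 window held the STAT and BCL6 core at 157 and 120 bases before the start, and the octamer on the opposite strand at 68 bases before it. These 3 matches did not overlap. Of 32851 mouse promoter windows of the same length, 7.02% held the STAT and BCL6 core at least once and 1.6% held the octamer. The Gpr183 window, with 32% G and C, and the second Ccr6 window, with 46%, held none of the 8 motifs. The windows of Cxcr4 and Cxcr3 held other motifs, CACCC and TATAAA for Cxcr4 and CAGGTG for Cxcr3, which 52%, 12.4% and 17.2% of promoters hold. The 2 TATA box matches of Cxcr4, 1 on each strand, overlapped each other. A match is a description of letters, not a shown binding site.

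In GCB, 3 of the 6 receptors, Gpr183, Ccr7 and Ccr6, were higher in every cKO library than in every WT library, an order that 5.42% of all tested genes showed. They differed by 2.51-fold, 2.66-fold and 3.02-fold in the fit. With the replicate block edgeR's test called these 3 receptors, among 293 genes (2.14% of those tested), of which 264 were higher in cKO (1.93%). Leaving out libraries moved the count of 293 genes to between 79, without WT GCB 1, and 340, without cKO GCB 3. It was 163 and 143 without WT GCB 2 and 3, 132 and 193 without cKO GCB 1 and 2, and 87, 135 and 180 without all of number 1, 2 or 3. Without the block edgeR's test called 14 genes (0.102%), all higher in cKO, and 0 of the 6 receptors. Its unadjusted p was under 0.05 for 4 of the 6 receptors, and for 673 of the 13708 tested genes. Cxcr5 and Cxcr4, which hold cells in the follicle and the dark zone, overlapped between the genotypes and passed in neither fit. The median log2 difference with the block was 1.10 over the 6 receptors and -0.00103 over all genes. Without cKO GCB 1 the median of the 6 receptors was 0.798 with the block.

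**Figure D1:**
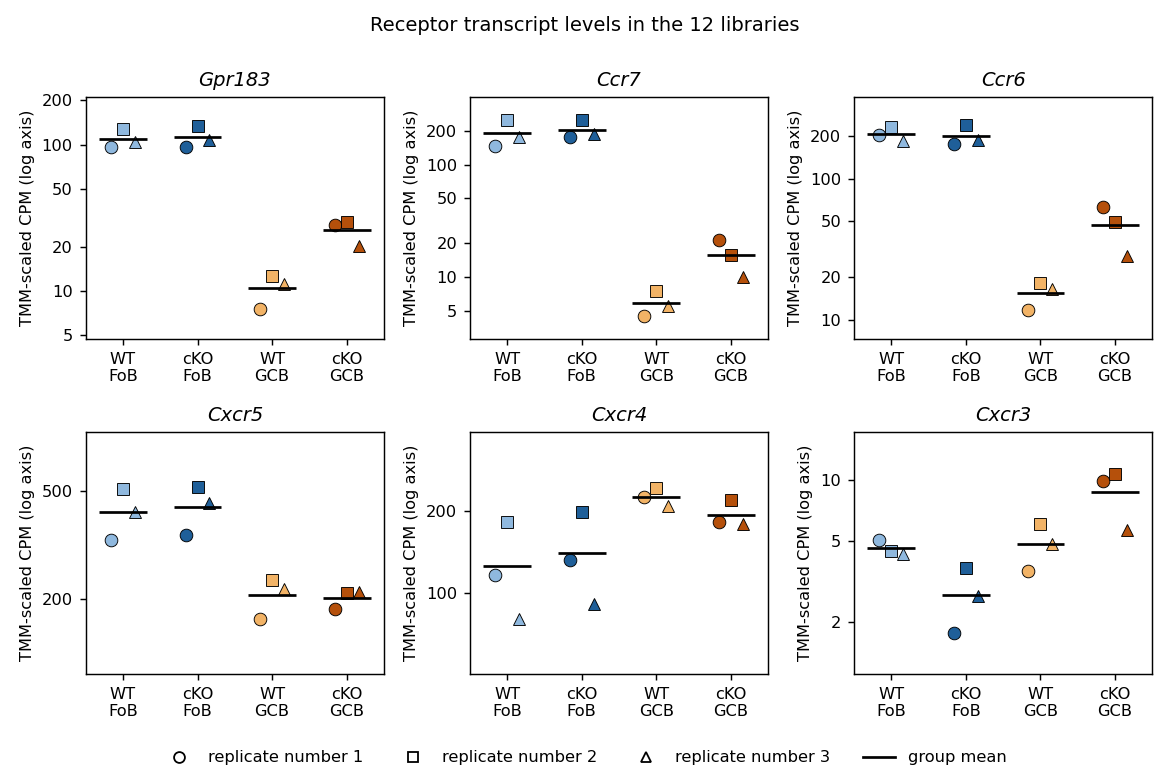
TMM-scaled CPM (log axis) of the 6 receptors in each of the 12 libraries, by group, with a bar at the group mean and a symbol for the replicate number. Gpr183, Ccr7 and Ccr6 sit far lower in GCB than in FoB, with the cKO GCB libraries between WT GCB and FoB, while Cxcr5 and Cxcr4 overlap between the genotypes.

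Gpr183, the oxysterol receptor (ENSMUSG00000051212, GRCm38.p6 chr14:121952331-121965193), was at 7.49, 12.6 and 11.1 CPM in WT GCB libraries 1, 2 and 3 and at 28.2, 29.6 and 20.3 CPM in the cKO GCB libraries. The lowest cKO library was thus above the highest WT library. The fitted log2 difference was 1.33 ± 0.22 (SE), or 2.51-fold, with an adjusted p of 0.0548 in edgeR's quasi-likelihood test. With the replicate block it was 1.34 ± 0.14 and the adjusted p was 0.000352. Without cKO GCB 1 the difference was 1.14 ± 0.12 with the block, adjusted p = 0.000384, and 1.27 ± 0.25 without it, adjusted p = 0.238.

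Ccr7, the receptor for the T zone chemokines (ENSMUSG00000037944, chr11:99144199-99155077), was at 4.51, 7.59 and 5.54 CPM in WT GCB and at 21.4, 15.6 and 10.0 CPM in cKO GCB. Its groups did not overlap either, with library 1 the highest of the cKO libraries and library 3 the lowest. The fitted log2 difference was 1.41 ± 0.30, or 2.66-fold, with an adjusted p of 0.146 in edgeR's test and of 0.00677 with the replicate block, at 1.43 ± 0.24. Without cKO GCB 1 it was 0.98 ± 0.12 with the block, adjusted p = 0.000758, and 1.12 ± 0.30 without it, adjusted p = 0.622. Leaving out WT GCB 1, the lowest library, lost the call of Ccr7 with the block, at 1.27 and adjusted p = 0.0652.

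Ccr6, the CCL20 receptor (ENSMUSG00000040899, chr17:8236041-8258519), was at 11.7, 18.4 and 16.6 CPM in WT GCB and at 63.4, 49.0 and 28.5 CPM in cKO GCB. As for Ccr7, cKO library 1 was the highest and library 3 the lowest, and the groups did not overlap. The log2 difference of 1.59 ± 0.27, or 3.02-fold, had an adjusted p of 0.0548 in edgeR's test, and with the replicate block it was 1.57 ± 0.22 with an adjusted p of 0.00249. Without cKO GCB 1 it was 1.21 ± 0.15 with the block, adjusted p = 0.00110, and 1.32 ± 0.26 without it, adjusted p = 0.236.

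Pairing libraries by number showed how unequal the differences were. Gpr183 differed by 1.90, 1.23 and 0.87 on the log2 scale in numbers 1, 2 and 3, Ccr7 by 2.23, 1.03 and 0.84, and Ccr6 by 2.43, 1.41 and 0.78. Number 1 thus gave the largest difference and number 3 the smallest for all 3 receptors, and also for Cxcr3. In no pair was the cKO library the lower one. Over 15 fits with the block that left out 1 library, or the 4 libraries of 1 number, the difference ran from 1.07 to 1.57 for Gpr183, from 0.96 to 1.68 for Ccr7 and from 1.12 to 1.94 for Ccr6. Gpr183 and Ccr6 passed in all 15 and Ccr7 in 14.

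**Figure D2:**
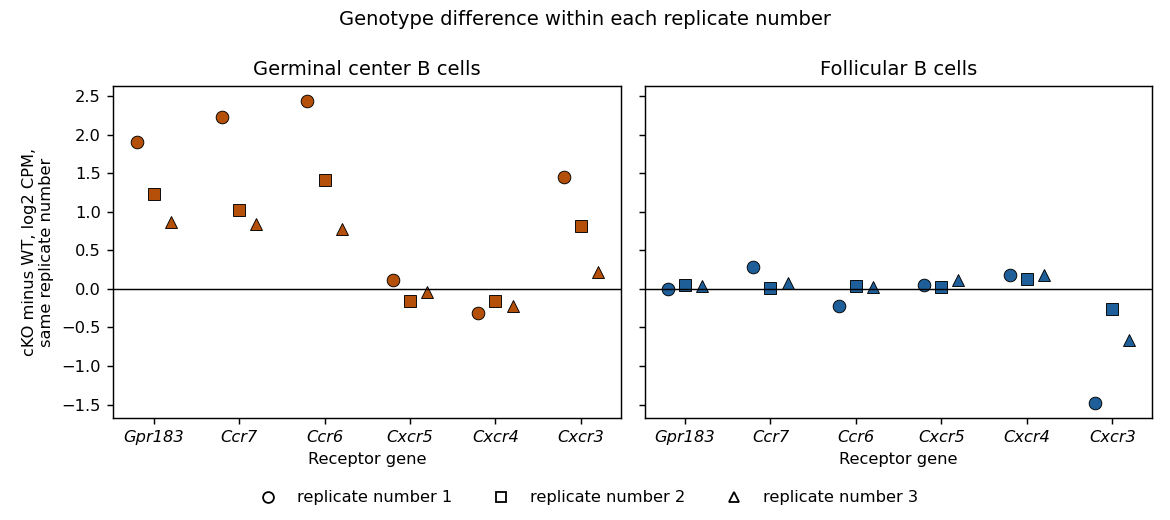
cKO minus WT difference in log2 CPM between libraries of the same replicate number, for each receptor, in GCB on the left and FoB on the right. In GCB all 3 pairs of Gpr183, Ccr7, Ccr6 and Cxcr3 lie above 0 with number 1 highest, and in FoB every pair lies within 0.28 of 0 except numbers 1 and 3 of Cxcr3, at -1.47 and -0.67.

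The authors' deposited table lists 10518 genes and has 31 of them at a false discovery rate under 0.05 in GCB (0.295%). In the authors' deposited table the log2 fold changes were 1.35 for Gpr183, 1.63 for Ccr6 and 1.47 for Ccr7. The false discovery rates in the authors' deposited table were 0.0108, 0.0343 and 0.0566, so Gpr183 and Ccr6 passed there and Ccr7 did not.

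Cxcr5, the follicle receptor (ENSMUSG00000047880, chr9:44511787-44526444), was at 169, 236 and 218 CPM in WT GCB and at 184, 211 and 213 CPM in cKO GCB. The cKO libraries lay inside the range of the WT libraries. The log2 difference was -0.04 with a 95% confidence interval of -0.47 to 0.40, and with the replicate block -0.02 with an interval of -0.22 to 0.17.

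Cxcr4, the dark zone receptor (ENSMUSG00000045382, chr1:128588199-128592299), was at 226, 244 and 209 CPM in WT GCB and at 182, 219 and 180 CPM in cKO GCB. The cKO library was the lower one in each of the 3 pairs, with log2 differences of -0.31, -0.15 and -0.22, and the groups overlapped. The fitted difference of -0.22 had an interval of -0.87 to 0.42, and with the block -0.23 with an interval of -0.57 to 0.11, and neither passed the test (adjusted p = 1 and 0.587 in edgeR's test).

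Cxcr3, the receptor for interferon-induced chemokines (ENSMUSG00000050232, chrX:101731535-101734147), was the least counted of the 6, with 52 to 266 counts per library. It was at 3.55, 6.05 and 4.86 CPM in WT GCB and at 9.81, 10.7 and 5.64 CPM in cKO GCB. Library 3 of cKO lay inside the WT range and the other two above it. The log2 difference was 0.85 ± 0.32, adjusted p = 0.683 in edgeR's test, and 0.85 ± 0.24 with the replicate block, adjusted p = 0.0962. Without cKO GCB 1 it was 0.62 ± 0.25 with the block, and without cKO GCB 3 it passed with the block, at 1.10 and adjusted p = 0.0311. Cxcr3 is also a receptor of T and NK cells, and the 8 NK markers summed to 7.50 to 10.7 CPM in WT GCB against 12.7 to 15.4 CPM in cKO GCB, while the 14 T cell markers summed to 69.6 to 91.1 and 82.5 to 91.9 CPM. Most of that T cell sum was Lck, at 67.6 and 62.7 CPM. Of the 11 tested T cell markers 9 had a value above 0 in cKO minus WT with the block, with a median of 1.15. Of the NK markers 8 of 8 did, with a median of 0.76, beside 0.85 for Cxcr3. Without cKO GCB 1 these medians were 0.879 and 0.503, beside 0.62 for Cxcr3. The defining T cell marker Cd3e had 2 to 7 counts in WT GCB libraries and 6 to 21 in cKO GCB libraries, and no NK marker was at 0 in every GCB library. None of the 8 NK markers and 1 of 11 tested T cell markers (Cd28) passed the test with the block, Cd28 no longer without cKO GCB 1 (adjusted p = 0.0971). The part of such cells in the values of Cxcr3, or of Gpr183, Ccr7, Ccr6 and the other receptors, was not tested.

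In FoB, none of the receptors passed the test between genotypes. Gpr183 was at 95.8, 128 and 104 CPM in WT FoB and at 96.0, 133 and 107 CPM in cKO FoB, so that no pair differed by more than 0.06 on the log2 scale. Ccr7 was at 145, 248 and 177 CPM and at 176, 251 and 186 CPM in the same order. Ccr6 was at 205, 233 and 185 CPM and at 176, 238 and 188 CPM. For these receptors library 2 was the highest in both genotypes and the groups overlapped. The fitted log2 differences with the block were 0.03 for Gpr183 (95% interval -0.24 to 0.31), 0.11 for Ccr7 (-0.31 to 0.53) and -0.05 for Ccr6 (-0.48 to 0.38).

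Cxcr5 stood at 332, 508 and 420 CPM in WT FoB and 345, 516 and 454 CPM in cKO FoB, and Cxcr4 at 117, 182 and 80.8 CPM and 132, 198 and 91.7 CPM. For both, library 2 was the highest in each genotype, and the groups overlapped. Cxcr3 was at 5.07, 4.45 and 4.30 CPM in WT FoB and at 1.78, 3.70 and 2.68 CPM in cKO FoB. Every cKO FoB library was below every WT FoB library, an order that 1.15% of all genes showed. Its log2 difference was -0.77 ± 0.32 with an unadjusted p of 0.0354 and an adjusted p of 1 in edgeR's test, and its lowest library, cKO FoB 1, rested on 52 counts, or 1.93 CPM before TMM scaling with an exact 95% interval of 1.44 to 2.53 for counting error. Over the 13708 tested genes edgeR called 0 in FoB (0%), with 95 at an unadjusted p under 0.05. With the replicate block it also called 0 (0%), with 299. DESeq2 called 4 genes and 7 with the block, limma-voom 0, and none of these was a receptor of the set.

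**Figure D3:**
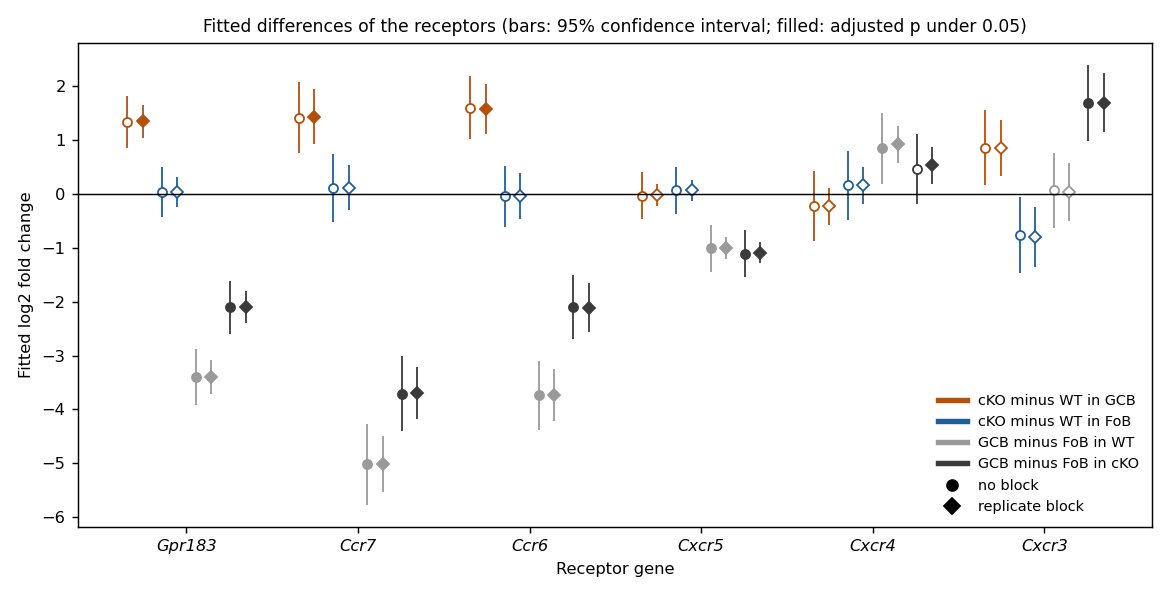
Fitted log2 fold changes of the 6 receptors in the 2 genotype comparisons and the 2 cell type comparisons, without the block (circles) and with it (diamonds), with 95% confidence intervals and filled symbols where the adjusted p is under 0.05. Without the block no genotype difference is filled, and with it Gpr183, Ccr7 and Ccr6 are filled in GCB and none in FoB.

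Between the WT cell types, 4 of the 6 receptors were lower in GCB than in FoB and Cxcr4 was higher, where 48.4% of all tested genes were called, and 69.5% with the block. In WT mice Ccr7 fell most, by 5.02 on the log2 scale (± 0.34), or 32.4-fold, with an adjusted p of 5.9e-07 in edgeR's test. Ccr6 fell by 3.74 (± 0.29) and Gpr183 fell by 3.40 (± 0.24), with adjusted p of 1.4e-06 and 6.7e-07. Cxcr5 fell by 1.01 (± 0.20), or 2.02-fold, with an adjusted p of 0.00130. These 4 receptors did not overlap between WT FoB and WT GCB, as 26.8% of all tested genes did not with WT GCB the lower group, and Cxcr5 stayed at 49.5% of its WT FoB mean.

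Cxcr4 rose by 0.84 ± 0.30 in WT GCB, adjusted p = 0.0350, and by 0.91 ± 0.16 with the replicate block, adjusted p = 0.000177. This call without the block was lost in 7 of the 15 fits that left out libraries, WT FoB 1, WT FoB 3, any of the 3 WT GCB libraries, or all of number 1 or 3, with an adjusted p of up to 0.236. The FoB libraries spread widely for Cxcr4, from 80.8 to 182 CPM in WT, and the GCB libraries less, from 209 to 244 CPM. Cxcr3 did not pass the test between the WT cell types, at 0.06 with an interval of -0.63 to 0.76.

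In cKO mice the calls covered 46.6% of all tested genes, and 69% with the block, and 5 of the 6 receptors passed without it. Ccr7, Gpr183, Ccr6 and Cxcr5 were lower in GCB, Ccr7 by 3.71 (± 0.32), Gpr183 by 2.11 (± 0.22), Ccr6 by 2.10 (± 0.27) and Cxcr5 by 1.11 (± 0.20), all with an adjusted p of at most 0.000763 in edgeR's test. Cxcr4 was at 0.46 ± 0.30, adjusted p = 0.225, and passed with the replicate block, at 0.53 ± 0.16 and adjusted p = 0.00964. The call with the block was lost without cKO FoB 3, cKO GCB 3 or all of number 3, with adjusted p of 0.0782, 0.0721 and 0.116. Without the block it passed without cKO FoB 2, at 0.79, or all of number 2, at 0.67. Cxcr3 was higher by 1.68 ± 0.32, adjusted p = 0.00123, from a mean of 2.72 CPM in cKO FoB to 8.72 CPM in cKO GCB, and these 2 groups did not overlap, an order that 28.3% of all tested genes showed. The cell type comparisons share the GCB libraries with the genotype comparison, so their values are set side by side and not tested against each other.

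By level, Gpr183 and Ccr7 had the order cKO FoB, WT FoB, cKO GCB, WT GCB, and Ccr6 had WT FoB first. For these 3 receptors only the 2 FoB groups overlapped, and 20.1% of all tested genes had all 6 FoB libraries above all 6 GCB libraries. Cxcr5 had the order cKO FoB, WT FoB, WT GCB, cKO GCB with overlap inside each cell type. For Cxcr4, from WT GCB through cKO GCB and cKO FoB to WT FoB, every pair of neighbours overlapped. For Cxcr3 only cKO FoB stood clear of its neighbour.

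Whether the genotype effect differed between the cell types was tested as a difference of differences. Without the block no receptor passed in edgeR's test, which called 1 of the 13708 tested genes (0.0073%) and had 371 at an unadjusted p under 0.05. With the replicate block Gpr183 passed at 1.31 ± 0.19, adjusted p = 0.0176, and Ccr6 at 1.62 ± 0.29, adjusted p = 0.0444, among 36 genes (0.263%), a count that ran from 2, without all of number 2, to 150, without cKO GCB 3. Ccr7 at 1.32 ± 0.31, adjusted p = 0.106, and Cxcr3 at 1.66 ± 0.35, adjusted p = 0.0886, did not pass. Over the 15 fits with the block that left out libraries, Gpr183 passed in 6 and Ccr6 in 3, with differences of 1.03 to 1.54 and 1.10 to 2.03. Gpr183 lost its call without WT FoB 2 or 3, any cKO FoB library, WT GCB 1, cKO GCB 2 or all of number 1 or 2. Ccr6 passed only without cKO GCB 1, cKO GCB 3 or all of number 3. Ccr7 passed without cKO GCB 1, at 0.85, or cKO GCB 3, at 1.55, and Cxcr3 without cKO GCB 3, at 1.91.

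The receptors that were higher in cKO GCB are also receptors of follicular cells, so they were set beside 11 other naive follicular markers. Gpr183 was at 9.49% of its WT FoB mean in WT GCB and 23.8% in cKO GCB, a shift of 15.8% of the way from WT GCB to WT FoB. Ccr6 went from 7.50% to 22.6%, or 16.4% of the way, and Ccr7 from 3.09% to 8.23%, or 5.30% of the way. The 11 markers had a median of 4.07% of the way, from -7.92% for the complement receptor Cr2 to 10.1% for the survival factor Bcl2. By group means Gpr183 and Ccr6 lay above each of the 11 markers in this measure and Ccr7 inside their range, a description with no test. Taking each cKO GCB library alone against the WT means, the median of the markers was 7.70% in library 1, 3.98% in library 2 and 0.0522% in library 3, and the same libraries gave 18.0%, 19.4% and 10.0% for Gpr183, 8.41%, 5.26% and 2.23% for Ccr7, and 24.9%, 17.4% and 6.76% for Ccr6. The order of the means did not hold in each library, since the inhibitory receptor Btla was at 18.0% in library 1, level with Gpr183, at 21.9% in library 2, above Gpr183 and Ccr6, and at -40.9% in library 3.

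**Figure D4:**
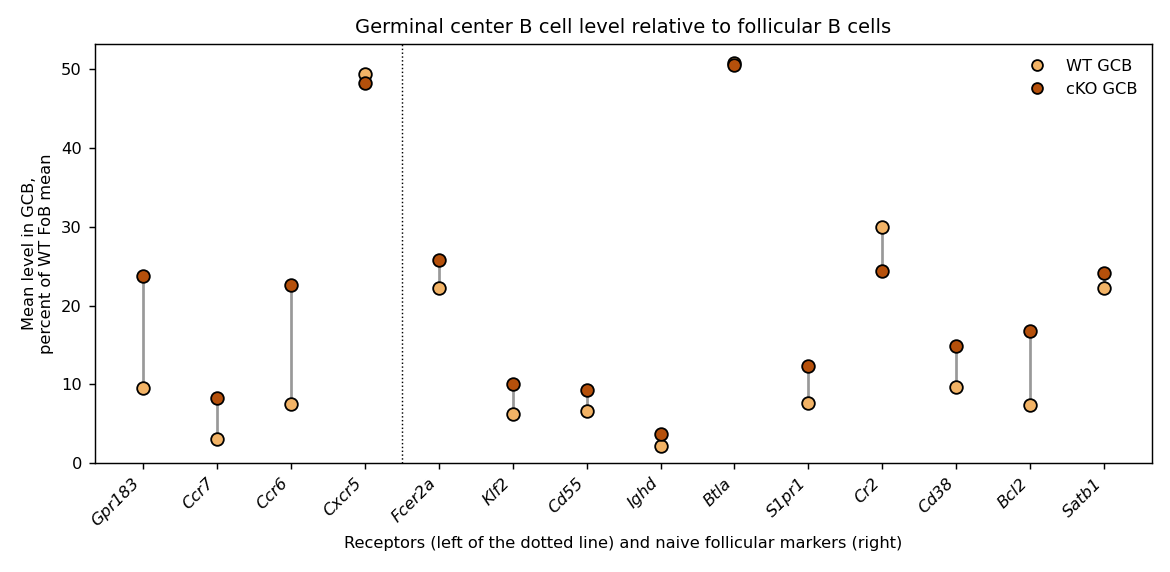
Mean level in WT GCB and cKO GCB as a percentage of the WT FoB mean, for the 4 receptors that fell in GCB (left of the dotted line) and 10 of the 11 naive follicular markers (right). Gpr183 and Ccr6 show the widest gaps between genotypes, from 9.49% to 23.8% and from 7.50% to 22.6%, while Cxcr5 lies at 49.5% and 48.2%.

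Of the 11 naive markers 0 passed without the block and 2 were higher with it, among them Bcl2 at 1.15 ± 0.16 (adjusted p = 0.00241). Their median log2 difference was 0.56 with the block, and 0.238 without cKO GCB 1. The summed level of the list ran from 1102 to 1254 CPM in WT GCB against 1015 to 1764 CPM in cKO GCB, highest in cKO GCB 1, and from 8635 to 12630 CPM in WT FoB. None of the 11 GCB markers passed, with a median of -0.37 with the block, and of -0.128 without cKO GCB 1. Their summed levels were 4407 to 5875 CPM in WT GCB against 4196 to 4723 CPM in cKO GCB. In bulk libraries a larger share of cells with a transcript and more of it in each cell cannot be told apart, and the part of follicular cells among the sorted GCB was not tested.

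Memory precursor cells of the germinal center are known to express Ccr6 and Gpr183, and of 8 genes listed for them 3 were higher in cKO GCB with the block and 0 without. These were Il9r, the interleukin 9 receptor, from 20.9 ± 5.92 to 62.9 ± 25.0 CPM (SD, n = 3; log2 difference 1.56 ± 0.12, adjusted p = 3.1e-05), the costimulatory ligand Cd80 (1.28 ± 0.22, adjusted p = 0.00865) and the repressor Zeb2 (0.64 ± 0.13, adjusted p = 0.0176). The median of the list was 0.52 with the block, and 0.318 without cKO GCB 1.

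Among the 18 other chemokine receptors, 12 were tested, and in GCB 2 were higher with the block and 0 without. Among them Ccr1, a receptor for inflammatory CC chemokines, was at 1.41 ± 0.54 CPM in WT GCB against 4.27 ± 2.12 CPM in cKO GCB, a log2 difference of 1.58 ± 0.27 with the block (adjusted p = 0.00758). It had low counts, 105 over the 3 WT GCB libraries, and was lower in WT GCB than in WT FoB, as were Gpr183, Ccr7 and Ccr6. Ackr4, a scavenger that removes the Ccr7 ligands, was at 0.649 CPM in WT FoB and 119 ± 13.7 CPM in WT GCB, 7.43 ± 0.73 on the log2 scale (adjusted p = 7.1e-06), and at 89.2 ± 11.0 CPM in cKO GCB, where it did not pass (adjusted p = 0.590 with the block). The median difference of the 12 in GCB was 1.07, beside 1.10 for the 6 receptors and -0.00103 for all genes, all with the block. Without cKO GCB 1 it was 0.856. The genes next to this median had low counts and did not pass. They held 17 and 15 counts over the 3 WT GCB libraries and 36 and 34 over the 3 cKO GCB libraries.

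**Figure D5:**
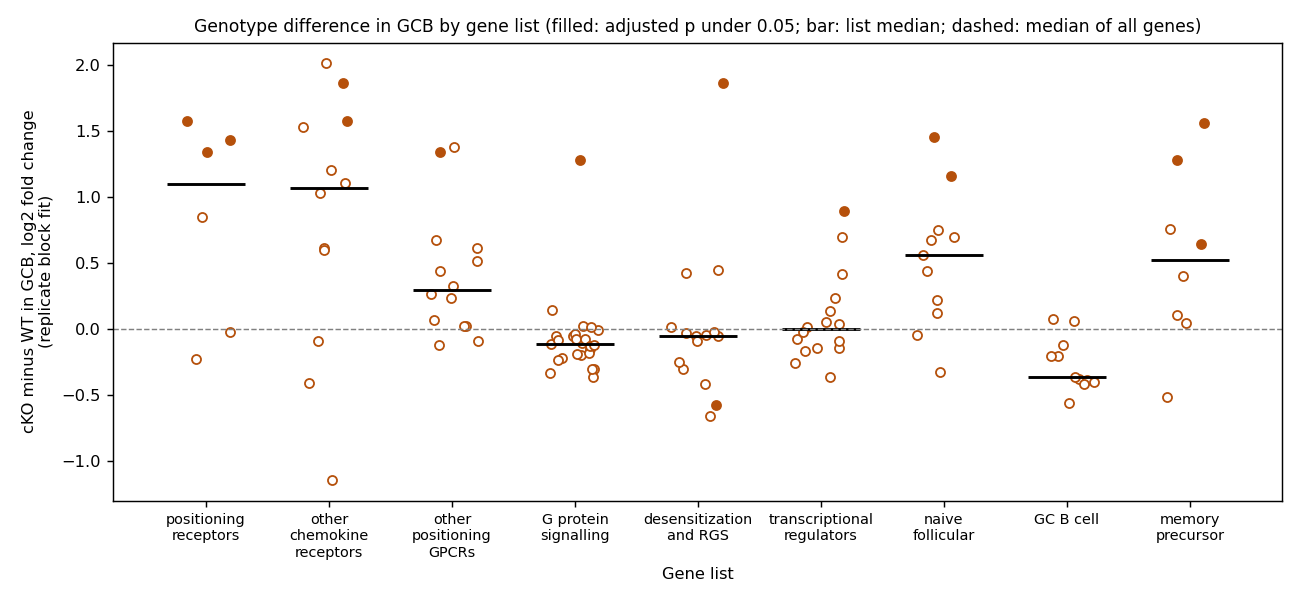
cKO minus WT log2 fold change in GCB, fitted with the replicate block, for each tested gene of 9 lists, with the list median as a bar, the median of all genes dashed and filled points where the adjusted p is under 0.05. The 6 receptors have a median of 1.10 with 3 filled, the other chemokine receptors 1.07 with 2 filled, and the G protein signalling list -0.11 with 1 filled. Without cKO GCB 1 the medians of these lists were 0.798, 0.856 and -0.174. Genes next to the median of the other chemokine receptors had low counts.

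Other receptors that place or retain lymphocytes gave 14 tested genes, with a median of 0.29 with the block, and of 0.136 without cKO GCB 1. Of these, 1 was higher in cKO GCB with the block and 0 without. It was Gpr132, a receptor for oxidized lipids and lysophospholipids, at 4.43 ± 0.38 CPM in WT GCB against 11.6 ± 5.73 CPM in cKO GCB (1.34 ± 0.23, adjusted p = 0.00827), and it was at 73.6 CPM in WT FoB. S1pr2, which confines B cells to the germinal center, was at 404 ± 60.8 CPM in WT GCB against 372 ± 63.3 CPM in cKO GCB and did not pass (adjusted p = 0.866 with the block). It was 6.62 ± 0.40 higher on the log2 scale in WT GCB than in WT FoB, and the cannabinoid receptor Cnr2 was lower there, at -2.46 ± 0.16.

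Below the receptors, 25 genes of Gi signalling and the motility machinery were tested. In GCB 1 was higher in cKO with the block and 0 without, and the median was -0.11. It was Pik3r5, the subunit that couples phosphoinositide 3-kinase gamma to the G protein beta-gamma dimer, at 5.48 ± 1.40 CPM in WT GCB against 13.5 ± 3.46 CPM in cKO GCB (1.28 ± 0.24, adjusted p = 0.0139). Between the WT cell types without the block 6 of the 25 were higher and 7 lower in GCB, where 48.4% of all tested genes were called. Their share was thus near that of all genes. Among them Gna13, which carries the S1pr2 signal, was higher by 1.34 ± 0.15, and Rassf5, an integrin regulator, was lower, at -1.75 ± 0.15.

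Of 15 genes that end or dampen receptor signals, 1 was higher and 1 lower in cKO GCB with the block, and 0 without. Rgs2, which shortens G protein signals, was at 206 ± 88.2 CPM in WT GCB against 135 ± 43.0 CPM in cKO GCB (-0.58 ± 0.11, adjusted p = 0.0139). In FoB Rgs2 was at 131 ± 55.9 CPM in WT against 83.9 ± 31.0 CPM in cKO. That difference was -0.63 ± 0.11 with the block and did not pass (adjusted p = 0.169 in edgeR's test). The Rgs2 difference was thus of like size in both cell types, with a difference of effects of 0.05 with the block. Rgs16, of the same family, was higher at 1.86 ± 0.44 (adjusted p = 0.0481) but at low counts, with 19 and 73 counts in all over 3 libraries each. The arrestin Arrb1 was at 10.2 ± 0.93 and 10.3 ± 1.65 CPM in the 2 genotypes and was lower in WT GCB than in WT FoB, at -2.84 ± 0.19 on the log2 scale.

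Of 16 transcriptional regulators, 1 passed with the block in GCB and 0 without. Irf4, which is known to drive B cells out of the germinal center program at high levels, was at 44.7 ± 8.64 CPM in WT GCB against 83.6 ± 21.0 CPM in cKO GCB (0.89 ± 0.15, adjusted p = 0.00748), and it was at 217 CPM in WT FoB. Klf2, which maintains S1pr1 and follicular homing, was at 15.1 ± 5.49 and 24.4 ± 6.92 CPM and did not pass (0.69 ± 0.22, adjusted p = 0.141 with the block).

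Without cKO GCB 1 the fit with the block still called Bcl2, Il9r, Cd80, Ccr1, Gpr132 and Irf4, at 0.89, 1.48, 1.42, 1.19, 0.96 and 0.78 on the log2 scale. The calls of Zeb2, Pik3r5, Rgs2 and Rgs16 were lost without it, with adjusted p of 0.103, 0.0639, 0.0765 and 0.132. Over 15 fits that left out 1 library or all 4 of a number, Bcl2 and Il9r passed in all 15, Cd80, Ccr1, Gpr132 and Irf4 in 12 each, Pik3r5 in 10, Zeb2 and Rgs2 in 9 and Rgs16 in 1. Apart from Bcl2 and Il9r, each of these lost its call without WT GCB 1.

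Ligands of the 6 receptors come mostly from stromal and myeloid cells. Of 8 listed chemokine ligands 5 were in the count table and 1 was tested, Cxcl10, at 0.361 ± 0.056 CPM in WT GCB against 0.425 ± 0.053 CPM in cKO GCB. Of 4 enzymes that make or remove the oxysterol ligand of Gpr183, 3 were in the table and 1 was tested, Cyp27a1, at 5.18 ± 2.32 and 4.07 ± 2.14 CPM, and neither gene passed between the genotypes in either fit. Of the other ligands and enzymes, those in the table had too few counts to test, and the rest were not analysed here.

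Genes of like pattern were ranked by Pearson correlation of log2 CPM among 9451 genes with a mean of at least 5 CPM. Over all 12 libraries, where the cell type sets most of the spread, Gpr183 was most like Anxa6, Fxyd5 and S100a10 (r = 0.994 to 0.993), Ccr7 like Fxyd5, Anxa6 and Klf3 (0.997 to 0.996), and Ccr6 like Lgals3bp, Plac8 and RP24-235B15.4 (0.994 to 0.993). Cxcr5 was most like H2-Eb1, an MHC class II chain, Iah1 and Reep5 (0.994 to 0.987), Cxcr4 like Lamtor5, Agk and Atp5c1 (0.962 to 0.956), and Cxcr3 like Fam129a, Ass1 and Spn (0.900 to 0.850). Cxcr3 thus had the lowest r of the 6.

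Over the 6 GCB libraries, Gpr183 was most like Tspan31, Fxyd5 and Pdlim1 (r = 0.999 to 0.993), Ccr7 like Pik3r5, the cyclin Ccnd2 and Marcks (0.993 to 0.988), and Ccr6 like the transcription factor Bhlhe41, Adam19 and Tmcc3 (0.993 to 0.988). The receptors also followed one another there, Ccr7 with Ccr6 at 0.992, Gpr183 with Ccr6 at 0.975, Gpr183 with Ccr7 at 0.963 and Gpr183 with Cxcr3 at 0.938. Cxcr5 did not follow them, at 0.159 with Gpr183, 0.0111 with Ccr7 and 0.00197 with Ccr6, and Cxcr4 was at -0.54, -0.52 and -0.56 with these 3. The 6 points share genotype groups, replicate numbers and library depth, so these values are descriptions with no test.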

How the data were processed

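Of the series, the 12 RNA-seq libraries were used, and the 4 ATAC-seq samples were not analysed here. The authors deposited a table of raw counts for 25640 Ensembl genes, and a second table gives the authors' log2 fold changes with their p-values and false discovery rates for 10518 genes. Tools named in the submitters' processing notes are edgeR, Bowtie2 and MACS2, with build mm10. They are listed over the RNA-seq and ATAC-seq samples together, not by assay. Libraries were made by the Nextera method per the labels' protocols. The sources used here do not give versions, the read counter, the annotation or strand use, so overlapping genes carry an uncertain share of reads.

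Groups came from the labels, and replicate numbers from the sample titles. Testing used edgeR 4.0.16 in R 4.3.3. Its filterByExpr step retained 13708 genes and removed 11932, libraries were scaled by TMM, and group means of all 12 libraries were compared by the quasi-likelihood F test, adjusted by Benjamini-Hochberg over all tested genes at a threshold of 0.05. Genotypes were compared within each cell type, cell types within each genotype, and the genotype effect between cell types. Levels are TMM-scaled CPM, given per library or as mean ± SD of 3, correlations used log2 CPM with a prior count of 2, intervals of fitted differences include the spread between libraries, and the exact interval of a single library covers counting error only. The test was run on simulated data with known changes first. Depth ran from 23349512 to 26967943 counts per library, and no 2 libraries held identical values (0 pairs).

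The pairing by replicate number was checked on deviations from group means: the 18 pairs of libraries with the same number in different groups correlated at 0.478 to 0.753 while 36 pairs with unlike numbers gave -0.654 to 0.0952. The numbers thus pair the libraries, by the data and not by a label. Blocking on the number gave a biological coefficient of variation of 0.114 on 6 residual degrees of freedom, against 0.266 on 8 without it.

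Alternatives were RLE factors or library size alone, no low-count filter, the authors' filtered genes, receptor segments left out of scaling, DESeq2 1.42.0, limma-voom (limma 3.58.1), fits of the 2 groups compared, the block and leaving out libraries. The 6 receptors and the gene lists were chosen with earlier results of these data known. All 6 receptors were named, up to 3 genes per pathway list that passed with the smallest adjusted p in GCB by genotype or between the WT cell types, and the 3 genes most like each receptor. A gene of each of 2 lists is not reported here by name and counts only in list totals. Cxcl10 and Cyp27a1 were the 1 tested gene of their lists, and Cr2 and Cd3e were named after their values were seen. Promoters came from a RefSeq table for GRCm38.p6, of which only bases before the start were used.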

Additional observations from a re-analysis of the deposited data

Results flagged for a closer look

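The genotype effect on Gpr183, cKO minus WT, was larger in GCB than in FoB by 1.31 on the log2 scale in the fit with the replicate block (adjusted p = 0.0176, edgeR's quasi-likelihood test), larger in 3 of 3 replicate numbers. For Ccr6 the same difference of effects was 1.62 (adjusted p = 0.0444), also in 3 of 3 numbers. Neither passed without the block, with adjusted p of 0.780 and 0.712. The fit with the block called 36 genes (0.263% of those tested). Over 15 fits with the block that left out libraries, Gpr183 passed in 6 and Ccr6 in 3. The share of all tested genes with a larger effect in GCB in 3 of 3 numbers was not counted.

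Cxcr4 went opposite ways in the 2 cell types in every replicate number, by -0.31, -0.15 and -0.22 in GCB and by 0.18, 0.12 and 0.18 in FoB. The tested difference of effects was -0.39 with the block and did not pass (adjusted p = 0.842, edgeR). Cxcr3 also went opposite ways in every number, by 1.45, 0.81 and 0.21 in GCB and by -1.47, -0.26 and -0.67 in FoB, and its difference of 1.66 with the block did not pass (adjusted p = 0.0886, edgeR). Both receptors were flagged because of this pattern. The share of all tested genes that show it was not counted, so it is a description only.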

How the results depend on the processing

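Without the replicate block 0 of the 6 receptors passed in GCB, and with the replicate block, which pairs libraries by number, 3 did, among 293 genes in place of 14. Other settings also called receptors there: library size alone 2 (23 genes in all), the authors' filtered genes 2 (18), no low-count filter 3 (62), DESeq2 3 (130), the replicate block on the 2 groups alone 3 (383) and DESeq2 with the replicate block 4 (549). The log2 differences in these 6 settings and with the replicate block were, for Gpr183, 1.39, 1.35, 1.32, 1.32, 1.34, 1.34 and 1.34, and for Ccr6, 1.67, 1.62, 1.59, 1.59, 1.54, 1.57 and 1.57. Ccr7 passed at 1.41 (no filter), 1.40 (DESeq2), 1.43 (replicate block), 1.38 (replicate block, 2 groups) and 1.43 (DESeq2 with the block), and Cxcr3 passed at 0.85 in DESeq2 with the block. Leaving out libraries without the block gave 0 to 3 receptors, among 1 to 57 genes in all. The 3 receptors were called only without cKO GCB 3, the fit that also called the 57 genes. The differences in these fits were 1.09 to 1.53 for Gpr183, 0.97 to 1.66 for Ccr7, 1.16 to 1.90 for Ccr6 and -0.16 to 0.064 for Cxcr5. With the block these were 0.96 to 1.68 for Ccr7, whose call was lost at 1.27 without WT GCB 1, 0.55 to 1.13 for Cxcr3, which passed at 1.10 without cKO GCB 3, and -0.11 to 0.071 for Cxcr5, which turned at 0.071 and 0.055 without cKO GCB 2 or number 2. For the difference of genotype effects 0 receptors passed in edgeR's test without the block (1 gene in all) and 1 in DESeq2 (20). With the replicate block 2 receptors passed (36 genes in all), and 4 in DESeq2 with the block (161). When libraries were left out with the block 0 to 4 passed (2 to 150 genes in all).

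Signs turned for values near 0 that passed in no setting. With library size alone Cxcr5 in GCB went to 0.025 and Cxcr3 between WT cell types to -0.015. Leaving out libraries moved the FoB difference over -0.10 to 0.14 for Gpr183, -0.070 to 0.32 for Ccr7, -0.19 to 0.039 for Ccr6, -0.082 to 0.21 for Cxcr5 and -0.18 to 0.49 for Cxcr4, Cxcr3 between WT cell types over -0.19 to 0.30, and the difference of effects of Cxcr5 over -0.24 to 0.045. With the block the ranges were -0.059 to 0.21 for Ccr7 and -0.13 to 0.070 for Ccr6 in FoB, which turned also at 0.016 without number 1, -0.21 to 0.28 for Cxcr3 between WT cell types, which turned also at -0.016 without WT GCB 2 and -0.048 without number 3, and -0.17 to 0.0034 for the difference of effects of Cxcr5. Of 1218 single-gene alternatives 1114 kept direction and call, and 33 turned sign. Leaving out all libraries of a number with the block, and following the list genes without libraries, were chosen after seeing the data. The cause of these changes was not tested. Without TMM factors group means of the 6 receptors moved by at most 4.05% and single-library levels by at most 8.52%. Depth limits Cxcr3 most, at 52 counts in its lowest library.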

Other observations

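Genes of the zones and of neighbouring B cell fates were read beside the receptors, in the edgeR fit of GCB by genotype. Of 8 dark zone genes 0 passed in either fit, with a median log2 difference of -0.16 with the replicate block. Of 8 light zone genes 1 was lower with the block and 0 without, the costimulatory ligand Cd86, from 111 ± 12.5 CPM (SD, n = 3) in WT GCB to 81.4 ± 18.8 CPM in cKO GCB (-0.47 ± 0.10, adjusted p = 0.0231), while the list median was 0.15. Of 8 plasma cell genes 2 were higher with the block and 0 without: Irf4, given above, and Prdm1, the plasma cell repressor Blimp-1, from 2.98 ± 0.82 to 6.97 ± 1.75 CPM (1.22 ± 0.21, adjusted p = 0.00929). Of 8 marginal zone and B-1 genes 2 were higher with the block and 0 without. Bhlhe41 went from 5.73 ± 1.17 to 20.8 ± 7.47 CPM (1.83 ± 0.29, adjusted p = 0.00542). Cd1d1, which presents lipid antigens, went from 2.13 ± 0.50 to 5.04 ± 2.91 CPM (1.17 ± 0.21, adjusted p = 0.0118). Of 7 B lineage genes 0 passed, with a median of -0.11.

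Markers of other cells gave low sums. Of 8 tested myeloid and dendritic genes 1 was higher with the block, Zbtb46 (1.73 ± 0.38, adjusted p = 0.0330), at 0.416 ± 0.132 CPM in WT GCB against 1.38 ± 0.38 CPM in cKO GCB, and of 3 tested neutrophil genes 0 passed. Without cKO GCB 1 the calls of Cd86, Prdm1, Cd1d1 and Zbtb46 with the block were lost (adjusted p = 0.0777, 0.0546, 0.0746 and 0.0840 in edgeR's test), and that of Bhlhe41 was not, at 1.72 (adjusted p = 0.0192). The myeloid list summed to 76.4 to 86.2 CPM in WT GCB against 66.6 to 86.0 CPM in cKO GCB, most of it Flt3 at 68.9 and 63.5 CPM.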
